A study of Mus musculus with 8 samples.

Results

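The receptors and enzymes of nerve signalling described here are encoded by 7 genes. Gfra1, Gfra2, Gfra3 and Gfra4 encode the co-receptors of the glial cell line-derived neurotrophic factor (GDNF) family, Ret encodes the receptor tyrosine kinase they share, Ache encodes acetylcholinesterase, and Colq encodes the collagen tail that anchors it. They were taken by symbol from a table of raw read counts per gene, and all 7 of 7 were found among its 23284 genes. Gfra2 and Colq were selected on the measured difference between the sorted fractions, in which they were among the most reduced genes, and the others were added as their relatives. The difference between the fractions is therefore a description of these genes, given with its error. Where calls of these genes from the test over all genes are counted, they are part of that description.

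The cells were mouse bone marrow haematopoietic stem and progenitor cells of the LSK fraction (no lineage markers, Sca-1 and c-Kit on the surface). All came from Hdc-GFP mice on a C57BL/6 background, in which green fluorescent protein reports on Hdc, the gene of the histamine-forming enzyme. They were sorted on GFP into Hdc-GFPhi (n = 4 libraries) and Hdc-GFPlo (n = 4 libraries). Each library was made from 2000 sorted cells. Both groups carry the reporter, their ages are not given, and nothing says whether replicates came from separate mice, so the spread between libraries may be in part technical. The comparison asks how progenitors with high and low reporter activity differ. Library totals were 21041170 to 22470121 counts in Hdc-GFPhi and 16726179 to 23051277 in Hdc-GFPlo. The defining genes of the sort were abundant in both, with Kit at 1460 CPM in Hdc-GFPhi, against 1195 CPM in Hdc-GFPlo (CPM, the read count scaled to library size by the TMM method) and Ly6a, which encodes Sca-1, at 124.7 and 119.3 CPM. Hdc itself was at 12.05 and 12.11 CPM. Hdc-GFPhi replicate 4 detected the fewest genes (14856, against 15215 to 15446 in the other libraries).

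GDNF family ligands act through a pair of receptors. A GFRα co-receptor, held on the outer membrane by a lipid anchor, binds the ligand and presents it to RET, which carries the signal into the cell. GDNF binds mainly GFRα1, neurturin GFRα2, artemin GFRα3 and persephin GFRα4. The system is best known from the enteric and motor nervous system and the kidney, and RET signalling has also been described in haematopoietic progenitors. Acetylcholinesterase ends signalling by acetylcholine. ColQ gathers its catalytic subunits at the basal lamina of the neuromuscular junction, while PRiMA anchors them in the membranes of neurons.

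Upstream sequence was taken for 3 of the 7 genes, Gfra1, Gfra4 and Ache, from RefSeq's promoter table (build GRCm38.p6). These were the genes for which an entry was found, and the 250 bases before an annotated start are shown. Gfra1 was low in Hdc-GFPhi, while its relative Gfra4 and Ache had overlapping levels in both fractions. Windows are chr19:58455399-58455648 (minus strand), chr2:131043089-131043338 (minus strand) and chr5:137288004-137288253 (plus strand), written 5′ to 3′ along the gene. Capitals mark matches to the E-box CANNTG, which reads the same on both strands.
Gfra1: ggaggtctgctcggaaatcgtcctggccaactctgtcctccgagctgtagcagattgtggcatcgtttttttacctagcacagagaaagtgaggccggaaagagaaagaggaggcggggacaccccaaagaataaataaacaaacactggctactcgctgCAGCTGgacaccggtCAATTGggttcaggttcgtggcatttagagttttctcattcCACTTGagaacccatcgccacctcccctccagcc
Gfra4: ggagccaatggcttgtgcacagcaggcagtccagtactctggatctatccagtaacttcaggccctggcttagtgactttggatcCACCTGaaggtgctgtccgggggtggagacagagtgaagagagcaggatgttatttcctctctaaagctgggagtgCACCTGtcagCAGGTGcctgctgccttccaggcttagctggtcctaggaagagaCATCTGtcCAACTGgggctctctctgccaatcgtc
Ache: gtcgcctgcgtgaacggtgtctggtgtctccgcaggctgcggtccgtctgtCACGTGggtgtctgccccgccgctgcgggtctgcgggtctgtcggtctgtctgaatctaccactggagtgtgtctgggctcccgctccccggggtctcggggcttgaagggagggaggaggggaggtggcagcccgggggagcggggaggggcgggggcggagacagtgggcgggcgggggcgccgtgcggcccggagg
The Gfra1 window held 3 E-box matches, that of Gfra4 held 5 and that of Ache held 1, and 66.2% of 32851 mouse windows of this length hold at least 1. The table holds 2 starts for Gfra4. The window shown is that of its first entry, and that of the other (chr2:131042683-131042932, minus strand) held 2 E-box matches at 54% GC with 5 CpG. The Tcf/Lef core CTTTGA, searched on both strands, was in none of these windows and in 13.8% of all windows. The windows differed in base composition. Ache lay in a GC-rich stretch (73.6% GC with 25 CpG), Gfra1 was at 52.4% with 10 CpG and Gfra4 at 55.2% with 2 CpG, where the median window had 52.4% GC and 6 CpG. A match to these letters is a description of the sequence.

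Hdc-GFPhi cells had very little Gfra2 and Colq RNA and little Gfra1, while Gfra4, Ret and Ache had levels that overlapped between the fractions and Gfra3 was all but absent. In each of Gfra1, Gfra2 and Colq, the highest Hdc-GFPhi library was below the lowest Hdc-GFPlo library. That separation, lower in Hdc-GFPhi, was found in 3 of the 6 genes that could be tested and in 3.54% of all 13300 tested genes, while 6.92% were separated in either direction. In edgeR's quasi-likelihood test over all genes, 2 of the 6, Gfra2 and Colq, were called lower and none higher at an adjusted p of 0.05, where 0.707% of all tested genes were called lower and 0.947% in either direction. The calls restate how Gfra2 and Colq were chosen, and so does their part in the separation. Gfra1 was added as a relative, with earlier results of these data known. Gfra1, Gfra2 and Colq also passed the filter on low counts only through Hdc-GFPlo, where they are high. The number called was 1 without replicate 3 of Hdc-GFPhi or without replicate 1 of Hdc-GFPlo, when Colq was not called, and 3 without Hdc-GFPhi replicate 4, when Gfra1 was.

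**Figure D1:**
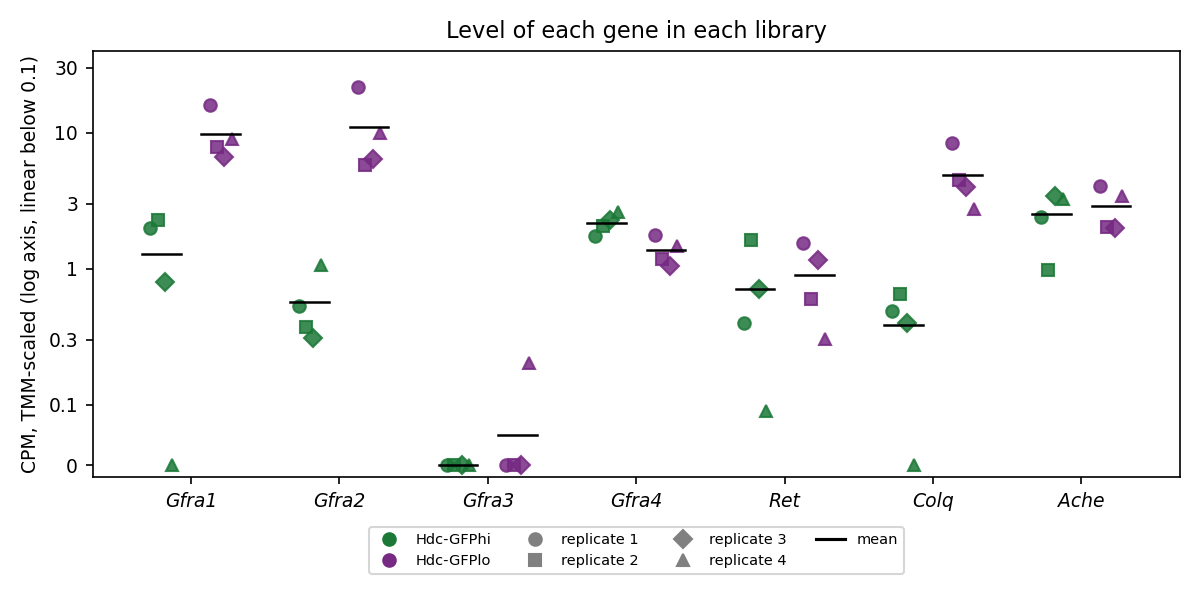
Level of each gene in each library, in TMM-scaled CPM on a log axis that turns linear below 0.1. Points are libraries with the shape giving the replicate, and black bars are the means of 4 libraries. Gfra1, Gfra2 and Colq are separated by fraction and Hdc-GFPhi replicate 4 is at 0 for Gfra1 and Colq.

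Gfra2 encodes the neurturin co-receptor. It had 12, 8, 7 and 24 counts in Hdc-GFPhi replicates 1 to 4, or 0.535, 0.373, 0.312 and 1.07 CPM. In Hdc-GFPlo replicates 1 to 4 it had 489, 97, 115 and 196 counts, or 21.6, 5.76, 6.37 and 9.94 CPM. Hdc-GFPlo replicate 1 was far above the rest of its fraction, and Hdc-GFPhi replicate 4 was the highest of its own. The means were 0.572 ± 0.345 CPM and 10.9 ± 7.37 CPM (SD, n = 4 each). The fitted difference was -4.24 ± 0.51 on the log2 scale (SE, 95% interval -5.36 to -3.13), an 18.9-fold lower level in Hdc-GFPhi, and 4 of the 13300 tested genes had a lower value. In bulk RNA, fewer cells with a transcript and less of it in each cell cannot be told apart.

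Gfra1 encodes the GDNF co-receptor. Its counts were 45, 49, 18 and 0 in Hdc-GFPhi replicates 1 to 4 and 363, 131, 119 and 176 in Hdc-GFPlo replicates 1 to 4. In CPM these were 2.01, 2.29, 0.801 and 0 against 16.1, 7.78, 6.59 and 8.92. Hdc-GFPlo replicate 1 was again the highest, and Hdc-GFPhi replicate 4 had no read at all, which allows up to 3 counts or 0.134 CPM (counting error only). The means were 1.27 ± 1.07 and 9.84 ± 4.26 CPM (SD, n = 4 each). The fitted difference was -2.95 ± 0.66 (SE, 95% interval -4.38 to -1.52), or 7.73-fold lower in Hdc-GFPhi. In the GENCODE M21 annotation the gene overlaps an antisense transcript, Gm16277, and no source used here gives the strand setting of the counting.

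Gfra4, the persephin co-receptor, lay the other way. Its counts were 39, 44, 51 and 59 in Hdc-GFPhi and 40, 20, 19 and 29 in Hdc-GFPlo. Levels were 1.74 to 2.63 CPM in Hdc-GFPhi, against 1.05 to 1.77 CPM in Hdc-GFPlo, so that Hdc-GFPlo replicate 1 just overlapped the lowest Hdc-GFPhi library. The means were 2.17 ± 0.375 and 1.37 ± 0.318 CPM (SD, n = 4 each), with a fitted difference of 0.66 ± 0.34 (SE, 95% interval -0.08 to 1.39). Gfra3, the artemin co-receptor, had 0 counts in 7 of the 8 libraries and 4 counts, or 0.203 CPM, in Hdc-GFPlo replicate 4. It did not pass the filter on low counts. Over the 88104039 counts of the Hdc-GFPhi libraries together, 0 counts allow up to 0.0341 CPM (counting error only).

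The make-up of the co-receptor family therefore differed between the fractions. This follows in part from the choice of Gfra2 for its low level in Hdc-GFPhi, while the levels of Gfra4 itself overlapped. Per kilobase of annotated exon, Gfra4 made up 65.8% to 84.9% of the summed Gfra level in the Hdc-GFPhi libraries and 10.6% to 18.8% in the Hdc-GFPlo libraries. Gfra2 made up 5.11% to 15.1% in Hdc-GFPhi and 40% to 57.1% in Hdc-GFPlo. Gfra1 made up 0% to 25.7% and 32.3% to 41.2%. The summed level was narrow in Hdc-GFPhi, at 1.704 to 1.997 CPM per kilobase, and ran from 3.90 to 10.7 in Hdc-GFPlo. Gfra1 exceeded Gfra2 per kilobase in Hdc-GFPhi replicates 1 to 3, by factors of 2.86, 4.67 and 1.96, but rested there on 7 to 12 Gfra2 counts. In Hdc-GFPlo the same ratio was 0.566 to 1.03.

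**Figure D2:**
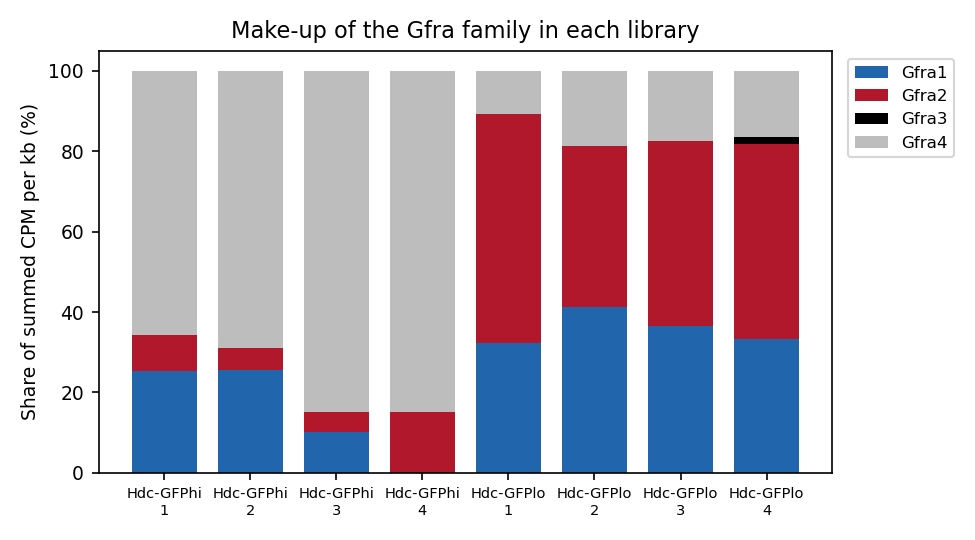
Share of each Gfra gene in the summed CPM per kilobase of the family, in percent, with 1 bar per library (fraction and replicate below). Gfra4 (grey) fills 65.8% or more of each Hdc-GFPhi bar and 18.8% or less of each Hdc-GFPlo bar.

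Ret, the kinase that all 4 co-receptors use, was scarce in both fractions. It had 9, 35, 16 and 2 counts in Hdc-GFPhi and 35, 10, 21 and 6 in Hdc-GFPlo. The highest library of each fraction had the same count, 35, and the lowest had 2 and 6. The means were 0.709 ± 0.667 and 0.902 ± 0.559 CPM (SD, n = 4 each). The fitted difference was -0.36 ± 0.71 (SE, 95% interval -1.91 to 1.18), wide enough to hold a difference of more than 2-fold either way. Per kilobase, the summed co-receptor level was 7.96 to 151.5 times that of Ret in Hdc-GFPhi and 22.7 to 128.5 times in Hdc-GFPlo, ratios that overlapped and rested on 2 to 35 Ret counts a library.

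Colq had 11, 14, 9 and 0 counts in Hdc-GFPhi and 190, 75, 72 and 54 in Hdc-GFPlo. In CPM these were 0.490, 0.653, 0.401 and 0 against 8.41, 4.45, 3.99 and 2.74. As with Gfra1, Hdc-GFPlo replicate 1 was the highest and Hdc-GFPhi replicate 4 had none, which allows up to 0.134 CPM. The means were 0.386 ± 0.278 and 4.90 ± 2.45 CPM (SD, n = 4 each), and the fitted difference was -3.65 ± 0.64 (SE, 95% interval -5.03 to -2.28), or 12.6-fold lower in Hdc-GFPhi. In GENCODE M21 a protein-coding model on the same strand, Gm49387, overlaps Colq and is not among the counted genes, so reads shared by both cannot be told apart.

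Ache, whose product ColQ anchors, had overlapping levels in both fractions. Its counts were 54, 21, 77 and 73 in Hdc-GFPhi and 92, 34, 36 and 68 in Hdc-GFPlo. The means were 2.52 ± 1.12 and 2.88 ± 1.04 CPM (SD, n = 4 each), with Hdc-GFPhi replicate 2 the lowest library at 0.980 CPM. The fitted difference was -0.20 ± 0.41 (SE, 95% interval -1.09 to 0.69).

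Levels of the 7 genes were compared with one another per kilobase. In Hdc-GFPlo the order was Gfra2 (3.09 ± 2.08 CPM per kilobase), Gfra1 (2.12 ± 0.917), Colq (1.54 ± 0.769), Ache (1.32 ± 0.477), Gfra4 (0.883 ± 0.205), Ret (0.133 ± 0.0827) and Gfra3 (0.0254 ± 0.0508, SD, n = 4 each). From Gfra2 down to Gfra4, each neighbouring pair in that order overlapped in its range over libraries, and Gfra4 and Ret did not. In Hdc-GFPhi the order was Gfra4 (1.40 ± 0.241), Ache (1.15 ± 0.511), Gfra1 (0.274 ± 0.230), Gfra2 (0.162 ± 0.0974), Colq (0.121 ± 0.0872) and Ret (0.105 ± 0.0986), with Gfra3 at 0. There Ache and Gfra1 overlapped slightly, at 0.448 to 1.57 against 0 to 0.493, and the last 4 detected genes overlapped one another. All 7 were low-level transcripts in these libraries.

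The profiles of Gfra1 and Colq over the 8 libraries were close. After each gene's own mean log2 CPM was subtracted, they differed by a root-mean-square of 0.58, the smallest distance among the 15 pairs of the 6 tested genes. Gfra2 was 1.28 from Colq and 1.69 from Gfra1, and Gfra4 and Ache were 0.65 apart. Hdc-GFPhi replicate 4, with 0 counts of Gfra1 and Colq but the most Gfra2 of its fraction, set Gfra2 apart from the other 2. With 0 counts in that library, Gfra1 and Colq both take a log2 CPM of -3.375 there, which is set by the prior count. The gap between the fractions also enters each distance. Distances of this kind are a description of 8 libraries and rest on few counts in Hdc-GFPhi.

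By the same measure, the genes most like Colq among 12007 candidates were Vpreb1 (0.48), a surrogate light chain gene of the pre-B cell receptor, Rag1 (0.52), a recombinase of antigen receptor genes, Ccdc135 (0.54), Gfra1 (0.58) and Lef1 (0.59), a transcription factor of lymphocyte development. Those most like Gfra2 were Vpreb2 (0.80), Tcf7 (0.81), Fam70a (0.81), Il7r (0.89), the receptor for interleukin-7, and Cox6a2 (0.91). The distance is set largely by the gap between the fractions on which Gfra2 and Colq were selected. Of these 10 genes, 5 are in the list of lymphoid progenitor markers, a description from which nothing more is read. A gene near to Colq has by that choice a low value in Hdc-GFPhi replicate 4, with Rag1 at 5 counts there against 39 to 50 in the other Hdc-GFPhi libraries and Lef1 at 0 against 22 to 33. With a prior count of 0.5 in place of 2, 2 of the 5 genes nearest to Colq stayed among its nearest 5.

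**Figure D3:**
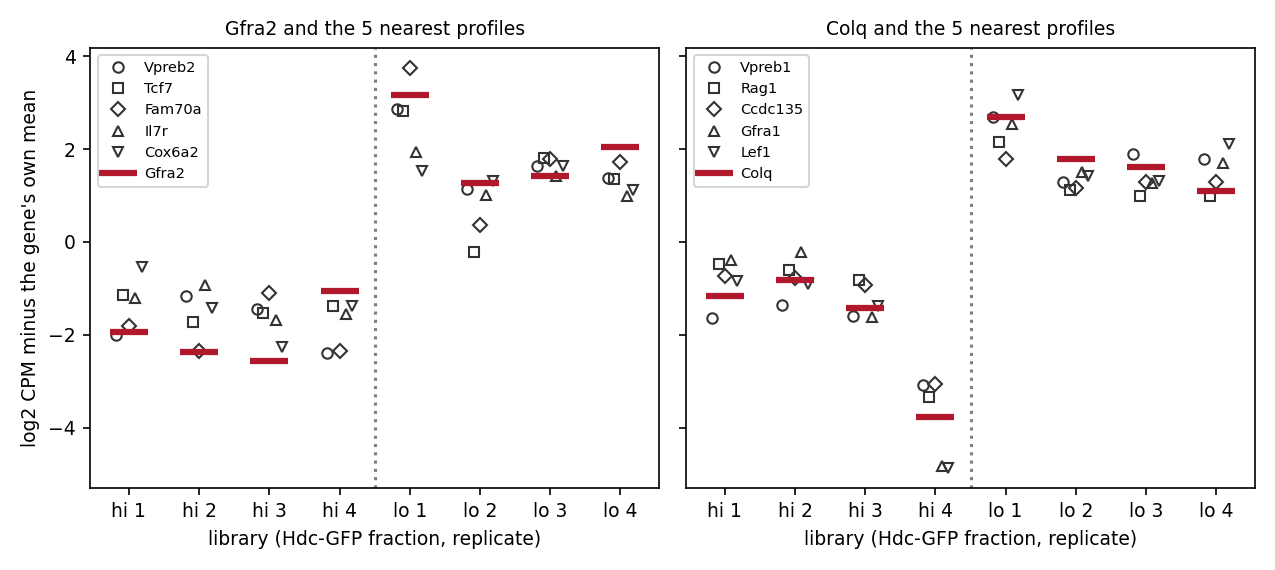
Log2 CPM minus each gene's own mean in the 8 libraries (hi, Hdc-GFPhi; lo, Hdc-GFPlo; number, replicate), for Gfra2 (left, red bars) and Colq (right, red bars) with the 5 nearest genes as open symbols. Colq and its nearest genes are lowest in Hdc-GFPhi replicate 4, and both Gfra2 and Colq are highest in Hdc-GFPlo replicate 1.

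Lymphoid progenitor markers were lower in the same fraction. The marker lists were written with earlier results of these data known, so their counts of calls are a description. Of 13 measured markers, among them Dntt, Il7r, Rag1, Igll1 and Ebf1, 11 were called lower in Hdc-GFPhi and none higher, against 0.707% of all tested genes, with a median log2 fold change of -2.42. Rag1 lost its call without any 1 library other than Hdc-GFPhi replicate 4, and Lef1 without replicate 2 or 3 of Hdc-GFPhi or replicate 1, 3 or 4 of Hdc-GFPlo. With 1 library left out, 8 to 11 markers were called lower. The summed level of the list was 445 to 669.5 CPM in Hdc-GFPhi, against 1658 to 2374 CPM in Hdc-GFPlo, with none of the measured markers at 0 everywhere. Hdc-GFPlo replicate 1, the highest library for Gfra1, Gfra2 and Colq, was also the highest for this sum. Hdc-GFPhi replicate 4 was the lowest for the sum, but had the most Gfra2 of its fraction (1.07 CPM). Per 1000 CPM of the sum, Gfra2 was at 0.674 to 2.40 CPM in Hdc-GFPhi and 3.42 to 9.11 CPM in Hdc-GFPlo. By the same ratio, Colq was at 0 to 1.18 and 1.65 to 3.54 CPM. Gfra1 overlapped, at 0 to 4.13 and 3.90 to 6.765 CPM. The part of lymphoid progenitors in the differences was not tested. Of 10 tested markers of plasmacytoid dendritic cells, 4 were called lower (summed level 423.7 to 462.3 against 566.4 to 675.8 CPM), among them Cox6a2, and their part was not tested.

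Cells of nerve and muscle, the tissues in which these genes are best known, left little RNA. None of 11 neuronal markers passed the filter on low counts. Their summed level was 0.935 to 2.27 CPM in the Hdc-GFPhi libraries and 0.166 to 1.195 CPM in the Hdc-GFPlo libraries, and Syt1, Th, Dbh and Stmn2 had 0 counts in all 8 libraries. The Schwann cell factors Foxd3 and Sox10 had 0 counts and 2 counts in all. The Schwann cell and glia list summed to 313.3 to 346.1 CPM in Hdc-GFPhi, against 281.6 to 380.4 CPM in Hdc-GFPlo, nearly all of it Mbp and Cnp. Skeletal muscle markers summed to 8.86 to 12.2 CPM and 10.2 to 12.7 CPM, with Myod1 at 0. Marker sums of stroma and endothelium were 51.0 to 61.8 and 41.1 to 51.4 CPM, and those of red cells 96.3 to 380.6 and 117 to 345.9 CPM.

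Gfra2 and Colq lie on the same chromosome, 14, and Gfra1 on 19, Gfra4 on 2, Ret on 6 and Ache on 5. The 2 nearest counted genes on each side of each of the 7 genes (28 genes, in the order of the GRCm38.p6 RefSeq annotation) included 17 with enough counts to test. None was called in edgeR's test, against 0.947% of all tested genes, and 1 had an unadjusted p under 0.05, against 10.9% of all tested genes. Mettl6, Eaf1, Hacl1 and Btd, which flank Colq, had log2 fold changes of -0.14, -0.18, 0.19 and -0.10. Dok2, an adaptor of receptor tyrosine kinases, is among the neighbours of Gfra2, with 2410012E07Rik, too low to test, between them. Dok2 was at 155.1 and 151.4 CPM (log2 fold change 0.03 ± 0.11, SE). Atrnl1, a neighbour of Gfra1, was at -0.33 ± 0.23. DESeq2 and voom also called none of the neighbours.

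The ligands of the pathway were rare or absent. Gdnf had 0 counts in all 8 libraries, which allows up to 0.0181 CPM over their 166063376 counts together (counting error only). Nrtn, the ligand of the Gfra2 product, was at 1.16 ± 0.584 CPM in Hdc-GFPhi, against 1.012 ± 0.461 CPM in Hdc-GFPlo (log2 fold change 0.18 ± 0.49, SE, a sign that flips in some fits). Artn had 2 and 3 counts and Pspn 27 and 29 counts over the 4 libraries of each fraction. Gdf15, a distant relative that signals through GFRAL and RET, was at 0.818 and 0.639 CPM, and its co-receptor gene Gfral had 0 counts. Neither of the 2 tested ligand genes was called. Ncam1, an alternative GDNF receptor that needs no RET, was at 3.63 and 3.85 CPM, and none of 6 tested co-receptor and alternative receptor genes was called, Itga6 coming nearest with a log2 fold change of 0.49 ± 0.15 (adjusted p = 0.204, edgeR).

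Downstream of RET, 1 of 19 tested adaptor genes was called higher and none lower in Hdc-GFPhi, where 0.241% of all tested genes were called higher. This was Grb10, an imprinted adaptor that binds RET and other tyrosine kinase receptors, at 60.9 ± 5.66 against 30.9 ± 5.89 CPM (SD, n = 4 each). Its log2 fold change was 0.98 ± 0.14 (SE, adjusted p = 0.00572, edgeR), and the call was made in all alternatives run. The list's median was 0.03, where that of all tested genes was -4.5e-04. None of 9 tested feedback and target genes was called. The summed level of the whole list was 606.4, 553.2, 303.3 and 305.3 CPM in Hdc-GFPhi replicates 1 to 4 and 578.9, 505.2, 298.7 and 318.1 CPM in Hdc-GFPlo replicates 1 to 4, so that libraries of the same number lay close in this sum. Spry2, a feedback inhibitor of receptor tyrosine kinase signalling, was at 2.05 to 3.17 CPM in Hdc-GFPhi, against 4.22 to 11.9 CPM in Hdc-GFPlo (log2 fold change -1.26 ± 0.33, adjusted p = 0.119 in edgeR), and DESeq2 called it (adjusted p = 0.0144). Dusp6, a phosphatase induced by ERK signalling, was at 159.1 ± 57.4 and 173.9 ± 60.2 CPM, a difference smaller than the spread and of a sign that flips when Hdc-GFPhi replicate 3 or Hdc-GFPlo replicate 1 is left out.

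On the cholinergic side, the RNA of acetylcholine synthesis was missing. Chat, which makes acetylcholine, and Slc5a7, the neuronal choline transporter, had 0 counts in all 8 libraries, as did Bche, the related cholinesterase, and Prima1, the other anchor of acetylcholinesterase. Slc18a3, the vesicular transporter, had 1 count. The same upper limit of 0.0181 CPM holds for each gene at 0. None of the 4 tested genes of the list, which serve choline uptake and use, was called, with Slc44a2 at 336.1 and 369.2 CPM and Chka at 60.8 and 63.3 CPM. Of 25 acetylcholine receptor and accessory genes, 9 had no count and 6 could be tested, and none was called. Chrnb1, a subunit of the muscle-type receptor, was at 32.3 ± 1.30 versus 24.0 ± 3.49 CPM (log2 fold change of 0.43 ± 0.14, adjusted p = 0.209, edgeR), while its partner subunit genes Chrnd and Chrng had 0 counts, Chrna1 had 1 and Chrne had 11 in Hdc-GFPhi and 5 in Hdc-GFPlo.

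Genes listed around the anchoring of ColQ at the synapse, some of which serve collagen folding, were uneven. A place in the list does not mean that a gene holds ColQ. Musk, the kinase that ColQ binds there, had 1 count in each fraction. Of 10 tested genes, Sdc4, a heparan sulfate proteoglycan of the cell surface, was called lower and none higher, with 14.8 ± 4.90 against 34.7 ± 8.62 CPM (SD, n = 4 each), a log2 fold change of -1.23 ± 0.24 (SE) and an adjusted p of 0.0279 in edgeR. It was no longer called when replicate 1, 3 or 4 of Hdc-GFPhi was left out, or replicate 1 or 2 of Hdc-GFPlo, with an adjusted p of up to 0.112 in edgeR. The list's median was 0.34 on the log2 scale, opposite in sign to Sdc4. Lamb2, a laminin chain of synaptic basal lamina, was at 27.1 ± 16.2 and 14.6 ± 9.04 CPM, a difference within the spread. Over all 9 pathway lists, 2 of 66 tested genes were called (3.03%, against 0.947% of all genes), 1 in each direction, and 9 had an unadjusted p under 0.05 (13.6%, against 10.9% of all genes).

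**Figure D4:**
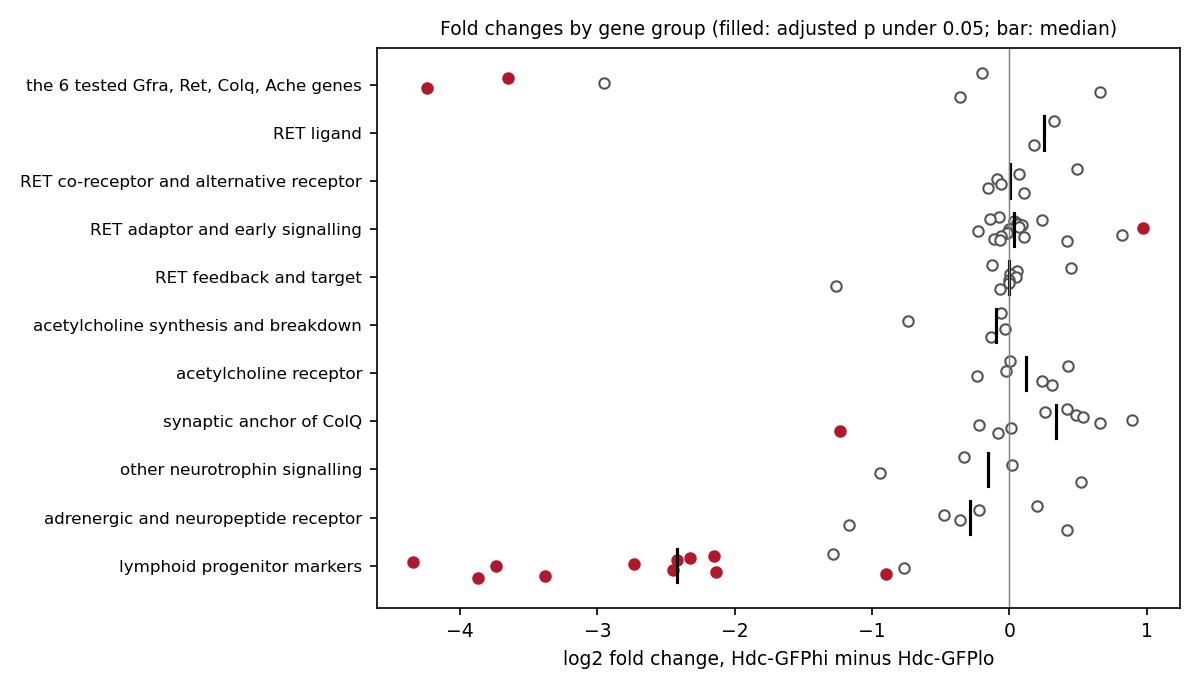
Log2 fold change (Hdc-GFPhi minus Hdc-GFPlo) of each tested gene, by group. Filled red points passed an adjusted p of 0.05 in edgeR, and black bars are the medians of the lists. Gfra2, Colq and Gfra1 lie between -4.24 and -2.95, in the range of the lymphoid progenitor markers at the bottom, while the pathway lists between them have medians of -0.29 to 0.34.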

How the data were processed

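Raw read counts per gene symbol were deposited by the authors as whole numbers, not normalized, for 8 libraries. Per the labels' protocols, libraries were made by SMARTer cDNA amplification and Nextera XT tagging. The submitters' processing notes name bcl2fastq 1.8.4, Bowtie2, TopHat2 (as 2.04), HTSeq 0.6.1 and the build mm9. The sources used here do not give the annotation, the strand setting or the handling of multi-mapping reads. Titles gave the groups and replicate numbers. Hdc-GFPhi replicate 4 is called GFP+ in 1 label and was kept. The 7 genes and all lists were chosen with earlier results of these data known.

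Genes were kept with filterByExpr (13300 of 23284; about 0.462 CPM in 4 libraries), scaled by TMM and tested with edgeR 4.0.16 (quasi-likelihood, robust, no covariate, Benjamini-Hochberg over all tested genes, threshold 0.05) in R 4.3.3. The biological coefficient of variation was 19.9%. Log2 CPM used a prior count of 2. Lengths are unions of exons in GENCODE M21 (GRCm38), which may differ from the authors' gene models. Neighbours and promoters are from RefSeq GRCm38.p6. No promoter entry was found for Gfra2, Ret or Colq. Promoter windows on chromosome 18, where Gfra3 lies, were not searched for the 7 genes. No molecular identifiers were used, so copies of 1 molecule are counted separately. Named genes were all 7 genes, called and smallest-p members of each list, the 5 nearest profiles to Gfra2 and to Colq, neighbours and abundant markers. Other genes that fall under the rule are not used here. Genes with 0 counts, Musk, Ncam1, Artn, Pspn and Slc18a3 were named after their values were seen. The alternatives were other scalings and filters, DESeq2 1.42.0, limma 3.58.1 voom, no robust estimation, a replicate block and each library left out. Leaving out Hdc-GFPhi replicate 4 with Hdc-GFPlo replicate 3, and thinning to the smallest total, were added after seeing the data.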

Additional observations from a re-analysis of the deposited data

Results flagged for a closer look

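In 90 sets of 4 libraries checked (the 7 genes, marker sums and genes named in the text, in each fraction), 10 had 1 library far from the other 3 by Dixon's ratio of the gap to the range, where chance flags about 5%. Gfra3 in Hdc-GFPlo had a ratio of 1, since all its reads were in replicate 4. In Hdc-GFPlo the lymphoid progenitor sum (0.953, with 2374 CPM in replicate 1 against 1658 to 1691) and Rag1 (0.92, with 14.3 CPM in replicate 1 against 6.37 to 7.01) stood high in the library that was also highest for Gfra1, Gfra2 and Colq. Their part in those levels was not tested. The neuron sum in Hdc-GFPlo (0.878) was low in replicate 3, at 0.166 against 1.07 to 1.195 CPM. In Hdc-GFPhi the red cell sum (0.884) had 1 library at 380.6 CPM against 96.3 to 129.3. Ccdc135 in Hdc-GFPhi (0.84) was at 1.38 CPM in replicate 4 against 6.37 to 7.31, and Spry2 in Hdc-GFPhi (0.876) had 1 library at 2.05 CPM against 3.03 to 3.17. Among the neighbours of Colq, Hacl1 in Hdc-GFPhi (0.985) had 1 library at 45.2 CPM against 36.5 to 36.6. Btd had 1 library at 50.02 against 40.6 to 41.9 CPM in Hdc-GFPhi (0.862) and 1 at 40.6 against 48.1 to 49.5 CPM in Hdc-GFPlo (0.846).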

How the results depend on the processing

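Over the fits with 1 library left out, the log2 fold change was -4.73 to -3.67 for Gfra2, -4.02 to -3.24 for Colq and -3.39 to -2.53 for Gfra1, and 1 to 3 of the 7 genes were called. Gfra4 ran from 0.56 to 0.81, while Ret (-1.17 to 0.04) and Ache (-0.38 to 0.07) crossed 0. Genes called lower numbered 44 to 105 with 1 library left out (44 without Hdc-GFPlo replicate 1), 241 with DESeq2 and 176 with voom. Genes called higher numbered 8 to 41, 163 and 100, so that 59.7% of DESeq2 calls and 74.6% of edgeR calls were lower. The cause was not tested. DESeq2 called 1 RET feedback gene, Spry2. The anchor list had 0 to 1 calls with 1 library left out and 0 with both Hdc-GFPhi replicate 4 and replicate 3 of Hdc-GFPlo left out, when 2 in place of 4 dendritic cell markers were called lower. The sign of Nrtn turned with voom (-0.031), without those 2 libraries (-0.0409) and with 1 library left out (-0.10 to 0.50), and the latter also turned Gdf15 (-0.22 to 1.15), Dusp6 (-0.33 to 0.084) and Dok2 (-0.032 to 0.10), none of them called. With the replicate block, 84 genes were called higher, 140 lower and 3 of the 7 genes, Gfra1 included. The labels do not say what a shared number stands for. For that reason the numbers were not taken as pairs in the main fit. This choice does not settle whether libraries of the same number are pairs. The deviations of same-numbered libraries from the fraction means correlated at 0.257, 0.347, 0.0755 and 0.1001 for replicates 1 to 4. Hdc-GFPhi replicates 1 and 2 correlated best with their own number, and replicates 3 and 4 did not. Gfra3 had too few counts for a fold change. In Hdc-GFPhi, Gfra2 and Colq rested on 51 and 34 counts in all, which limits the precision of their fold changes.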

Other observations

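Receptors of other nerve-derived signals were also measured. Ramp1 and Calcrl, which together form the receptor for the sensory neuropeptide CGRP, are an example. Ramp1 was at 264.9 ± 15.3 CPM in Hdc-GFPhi against 339.3 ± 45.4 CPM, and Calcrl at 231.9 ± 57.8 CPM against 322.2 ± 32.8 CPM (SD, n = 4 each). Neither was called (log2 fold change -0.36 ± 0.11, adjusted p = 0.181, and -0.47 ± 0.16, adjusted p = 0.246, edgeR), and the fractions did not overlap for Ramp1. None of 6 tested adrenergic and neuropeptide receptor genes was called (median log2 fold change -0.29). Among neurotrophin genes, Bdnf, Ntrk2, Ntrk3 and Ngfr had 0 counts in all 8 libraries. None of 4 tested genes of that list was called (median -0.15), with Lifr at 2.227 ± 1.803 and 4.26 ± 0.846 CPM and Il6st, the shared receptor chain of the interleukin-6 family, at 63.3 ± 12.0 and 79.3 ± 28.2 CPM.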
